A study of Mus musculus with 9 samples.

Results

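The triad genes of excitation-contraction coupling were followed from primary mouse myoblasts (MB) to myotubes (MT) and adult gastrocnemius muscle (GAS), and in MB treated with lactate. Members were 10 genes named by symbol, Ryr1, Ryr3, Cacna1s, Cacnb1, Cacng1, Stac3, Jph1, Jph2, Trdn and Asph, and each symbol matched 1 Ensembl identifier in all 9 deposited count files. They are 10 of the 36842 genes listed in every file.

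Skeletal muscle contracts when depolarization of the surface membrane is converted into calcium release from the sarcoplasmic reticulum. This takes place at the triad, where an invagination of the membrane, the transverse tubule, lies between terminal sacs of the reticulum. The L-type calcium channel of the tubule serves as voltage sensor and opens the ryanodine receptor of the reticulum through mechanical contact, junctophilins hold both membranes together, and triadin and junctin tie the ryanodine receptor to calsequestrin, the calcium buffer of the store. These genes are known to be switched on during myogenic differentiation, and tubules mature into regular triads late in development.

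GAS was taken from C57BL/6 mice aged 8 to 12 weeks (n = 3 biological replicates), with no treatment. MB and MT were primary cultures (n = 2 libraries each), and MT had been kept for 3 days in differentiation medium with a low share of horse serum. MB growth medium contained horse serum, fetal bovine serum and basic FGF. Control cultures received PBS, the solvent of the lactate, and treated MB (n = 2) received 10 mM sodium-L-lactate in it. Whole muscle holds nonmuscle cells beside its fibers, and MT cultures can retain cells that have not fused. In such bulk RNA, fewer cells of a type and less RNA per cell cannot be told apart. For the cultures, no source used here states whether replicates came from separate animals, so the p-values measure the spread between these libraries, which may be technical.

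Between 19307793 and 19941574 reads were counted on genes per GAS library and between 5198247 and 10839516 per library of cultured cells, so that 3 counts correspond to at most 0.155 CPM, that is counts scaled to a fixed library total, in GAS and to 0.277 to 0.577 CPM in the cultures. All 6 myofiber markers (Myog, Ckm, Acta1, Tnnt3, Myh3 and Myh4) were called higher in MT than in MB, with a summed level of 10146 and 12380 CPM in the MT libraries and of 168 and 83.6 CPM in MB. The 5 myoblast markers (Pax7, Myf5, Myod1, Mki67 and Top2a) were all tested, and 2 were called lower in MT and none higher. Their summed level was 306.5 and 502.2 CPM in MT and 1463 and 1416 CPM in MB. MT replicate 1 stood apart. It had counts for 28599 genes, against 15548 to 17965 in the other cultured libraries, and 8918 genes, with 1.23% of its counts, were counted in no other culture. Of the 5 fibroblast markers (Pdgfra, Col1a1, Col3a1, Dcn and Lum), 4 were tested and 3 were called higher in MT, and their summed level was 24032 and 14563 CPM in MT against 473 and 234 CPM in MB, where Lum had no count. Of the 4 smooth muscle markers (Myh11, Acta2, Lmod1 and Notch3), 3 were tested and called higher in MT, with sums of 1211 and 3486 CPM in MT against 457 and 278.5 CPM in MB, of which Acta2 made up most. The part that other cells and the additional genes of MT replicate 1 have in the values for MT was not tested.

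The table of RefSeq promoters used here (assembly GRCm38.p6) held an entry for 4 of the 10 genes: Ryr1, Cacna1s, Cacnb1 and Jph2. For each, the 250 bases before a RefSeq start are shown, because Cacna1s, Ryr1 and Cacnb1 rose together in MT while Jph2 did not pass the test. Cacnb1 and Jph2 had 2 starts each, of which 1 is shown, for Cacnb1 the one with an E-box. Capitals mark every E-box, CANNTG, the motif that myogenic factors such as MyoD and myogenin bind. The Cacna1s stretch (chr1:136052561-136052810, plus strand, its last 61 bases in an exon of the gene in GENCODE) and the Ryr1 stretch (chr7:29125152-29125401, minus strand, its last 28 bases in an exon) are followed by that before the downstream start of Cacnb1 (chr11:98018373-98018622, minus strand, intronic) and that of Jph2 (chr2:163397994-163398243, minus strand, ending just before the first exon).
Cacna1s: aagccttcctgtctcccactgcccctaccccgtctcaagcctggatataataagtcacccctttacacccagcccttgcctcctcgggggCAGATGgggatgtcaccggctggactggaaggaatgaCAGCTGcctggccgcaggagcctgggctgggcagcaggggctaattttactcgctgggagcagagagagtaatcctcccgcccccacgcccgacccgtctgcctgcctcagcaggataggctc
Ryr1: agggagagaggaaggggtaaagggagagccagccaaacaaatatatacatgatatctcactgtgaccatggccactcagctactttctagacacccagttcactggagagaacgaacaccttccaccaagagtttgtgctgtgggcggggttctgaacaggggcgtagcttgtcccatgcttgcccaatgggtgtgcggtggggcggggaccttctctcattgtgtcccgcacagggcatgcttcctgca
Cacnb1: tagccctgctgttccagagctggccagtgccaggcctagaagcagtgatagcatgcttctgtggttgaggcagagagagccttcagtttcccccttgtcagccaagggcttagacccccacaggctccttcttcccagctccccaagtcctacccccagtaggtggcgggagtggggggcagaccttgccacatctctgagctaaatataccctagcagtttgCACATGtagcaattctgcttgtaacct
Jph2: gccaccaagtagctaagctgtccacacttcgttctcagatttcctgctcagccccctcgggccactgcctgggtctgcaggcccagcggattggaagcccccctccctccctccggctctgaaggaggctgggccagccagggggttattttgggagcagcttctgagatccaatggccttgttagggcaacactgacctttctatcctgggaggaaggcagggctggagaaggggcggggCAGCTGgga

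The pattern CANNTG, though not each site, reads the same on both strands, and a first base at -1 is the last base before the start. Cacna1s held 2, with first bases at -160 and -123. The second of them has the core CAGCTG. Jph2 held 1 with this core, at -9 from the start shown and at -29 from its other start. The downstream start of Cacnb1 held 1 at -27, and Ryr1 and the upstream start of Cacnb1 held none. Of 32817 promoter stretches of the same length, 66.2% held an E-box and 13% the CAGCTG form. The MEF2 site, searched on both strands, was in none of these stretches and in 2.92% of all.

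The comparison of MT with MB asks which triad genes change as MB differentiate. In MT, 6 of the 10 genes were expressed at a higher level than in MB: Trdn, Cacna1s, Ryr3, Ryr1, Cacnb1 and Cacng1. These are the pore, beta and gamma subunits of the voltage sensor, both release channels and triadin. None was called lower, and Jph1, Stac3, Asph and Jph2 did not pass the test. A gene was called with an adjusted p under 0.05 and an absolute log2 fold change (log2FC) over 0.5 in edgeR's quasi-likelihood test. Of the 12921 genes tested, 11.0% were called higher and 6.86% lower. The median log2FC was 4.37 over the 10 genes and 0.07 over all genes tested. Both MT libraries lay above both MB libraries for 7 of the 10 genes, as they did for 32.9% of all genes tested, and below both for none of the 10 and for 29.2% of all. All 10 passed the filter on low counts. Trdn, Cacna1s and Ryr3 passed it through their MT libraries, since neither MB library reached its minimum of 1.19 CPM, and Ryr1 and Jph1 reached it in 1 MB library.

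**Figure D1:**
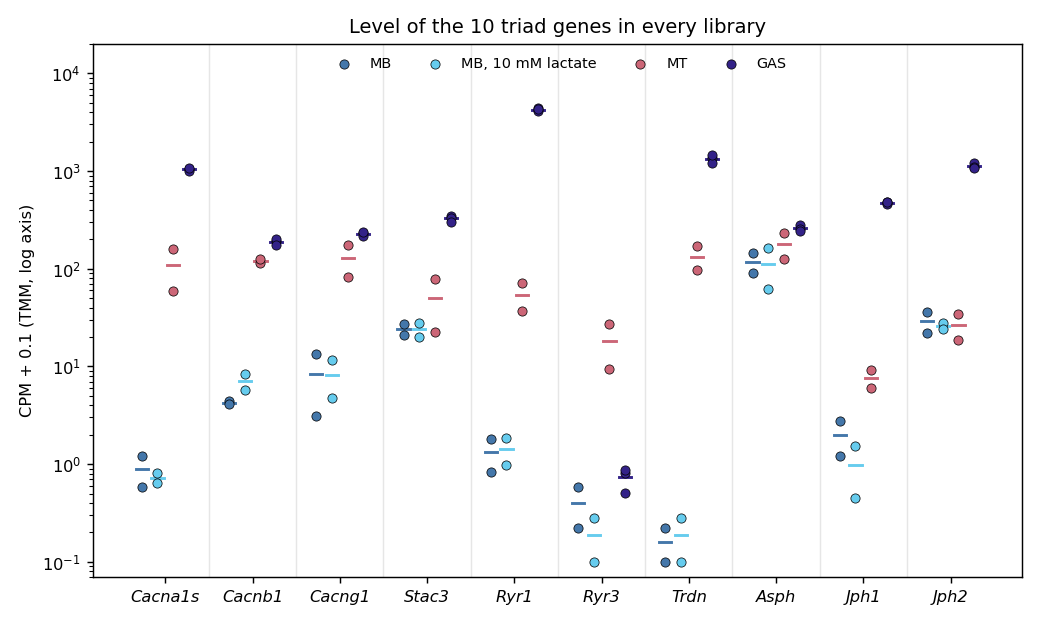
Level of the 10 triad genes in each of the 9 libraries, as CPM + 0.1 on a log axis, with 1 point per library and a bar at the group mean; genes are ordered by their role, from voltage sensor to junctophilins. For Trdn, Cacna1s and Ryr1 MB libraries lie below 2 CPM, MT libraries between 36.4 and 169.8 CPM and GAS libraries at 994.5 CPM or more, whereas for Ryr3 the MT libraries lie highest. CPM were scaled separately for GAS and for the cultures.

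In the voltage sensor, Cacna1s encodes the pore-forming subunit, whose movement opens the ryanodine receptor. Its level was 59.5 and 158.7 CPM in MT replicates 1 and 2 and 1.10 and 0.482 CPM in MB replicates 1 and 2. Each MT library was far above both MB libraries. The log2FC was 7.04 (SE 0.74, 95% interval 5.40 to 8.67, adjusted p = 0.00022 from edgeR). The MB values rest on 9 and 4 counts. Without MT replicate 1, the log2FC was 7.54, without MT replicate 2 it was 6.09, and without MB replicate 1 or 2 it was 7.73 or 6.44. With 1 library left in a group, the fit takes that group's spread from the other, so only these sizes are read.

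Cacnb1 encodes the beta subunit that brings the channel to the membrane. It was the most even of the called genes, with 115.5 and 124.8 CPM in MT and 4.29 and 3.98 CPM in MB, and its groups were well apart. The log2FC was 4.85 (SE 0.50, 95% interval 3.75 to 5.96, adjusted p = 0.0002 from edgeR). Cacng1, for the gamma subunit, which limits calcium entry through the channel, had 81.6 and 174.5 CPM in MT and 13.4 and 3.01 CPM in MB. Both groups spread widely without overlapping, and edgeR gave a log2FC of 3.89 with an SE of 0.73 (adjusted p = 0.00553). With 1 library left out, the log2FC of Cacnb1 stayed between 4.65 and 4.87. That of Cacng1 moved more, to 4.30 without MT replicate 1, 3.17 without MT replicate 2, 5.35 without MB replicate 1 and 3.09 without MB replicate 2.

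Stac3 encodes the adaptor that the muscle channel needs to reach the membrane and to couple to the ryanodine receptor. In MB it had 27.2 and 20.97 CPM. With the union of exons as length, this was the highest mean level of the 10 genes there, in libraries that overlapped those of Asph. In MT it had 22.6 and 77.6 CPM, so that MT replicate 1 lay between the MB libraries and MT replicate 2 above them. The log2FC was 1.00 with a 95% interval of -0.29 to 2.29 (adjusted p = 0.262 from edgeR), and it was -0.20 without MT replicate 2.

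Of the release channels, Ryr1 is the isoform that couples directly to the voltage sensor. It had 36.4 and 70.8 CPM in MT and 1.72 and 0.723 CPM in MB, from 489 and 557 counts against 14 and 6. No MT value came near MB, and the log2FC was 5.40 (SE 0.69, 95% interval 3.88 to 6.93, adjusted p = 0.00067 from edgeR). It was 5.76 without MT replicate 1, 4.77 without MT replicate 2, 6.14 without MB replicate 1 and 4.79 without MB replicate 2.

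Ryr3, an isoform prominent in developing muscle and opened by calcium rather than by contact with the voltage sensor, had 364 and 73 counts in MT (27.1 and 9.28 CPM) and 1 and 4 counts in MB. edgeR gave 5.91 for its log2FC with an SE of 0.96 (adjusted p = 0.00263), and the ratio of pooled CPM was 67.5 (95% interval 28.7 to 209, counting error only). Among the genes called, the MT libraries differed most for this one, with a coefficient of variation of 69.3%. Per kb of exon it had 19.2 counts in MT replicate 1 and 3.85 in replicate 2, whereas the protein-coding genes counted in replicate 1 alone had a median of 3.23 and a 90th percentile of 18.2 counts per kb. The log2FC without MT replicate 1 was 4.83, the lone MT library being assumed to vary like MB. Without MT replicate 2 it was 6.35, and without MB replicate 1 or 2 it was 5.18 or 6.94. Ryr2, the isoform of cardiac muscle, was not tested and had 108 counts in MT replicate 1, none in MT replicate 2 and 1 and 0 in MB.

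**Figure D2:**
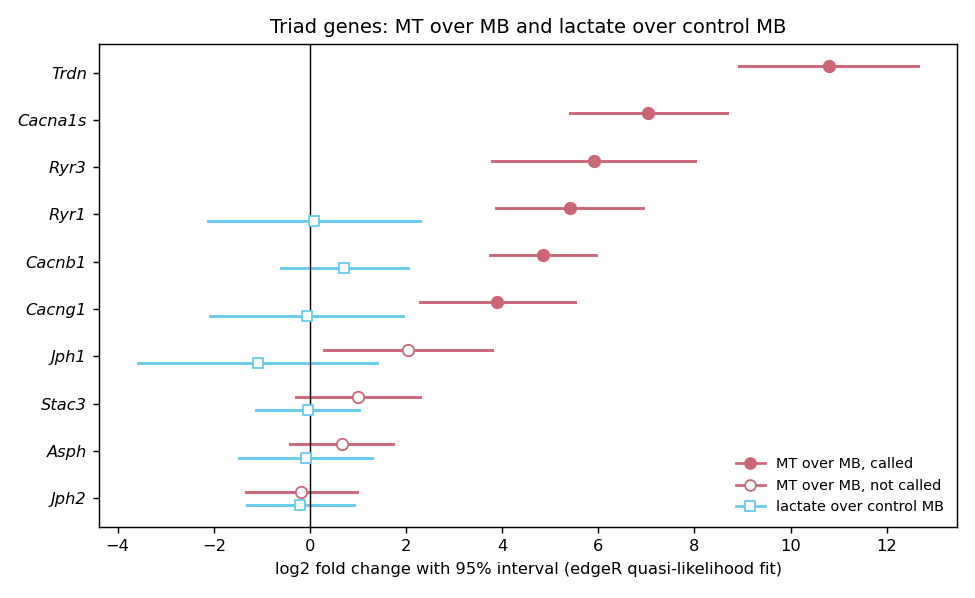
log2FC of MT over MB (circles, filled where called) and of lactate-treated over control MB (squares) for the 10 triad genes, with 95% intervals from edgeR's quasi-likelihood fit, n = 2 libraries per group. The 6 filled circles lie between 3.89 and 10.80 with intervals above 0, while all 7 squares lie between -1.09 and 0.71 with intervals across 0; Ryr3, Cacna1s and Trdn were not tested for lactate.

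Trdn encodes triadin, the anchor between ryanodine receptor and calsequestrin, and had the highest log2FC of the 10 genes. It was all but undetected in MB, with 0 and 1 counts, and had 1290 and 1335 counts in MT, or 96.1 and 169.8 CPM. The fitted log2FC was 10.80 (SE 0.84, adjusted p = 8.7e-05 from edgeR), a size that depends on how counts near 0 are handled. The ratio of pooled CPM was 2029 with a 95% interval of 364 to 80162 for counting error. With 1 library left out, the fitted log2FC was 11.07 without MT replicate 1, 10.28 without MT replicate 2, 9.92 without MB replicate 1 and 13.30 without MB replicate 2, the library with the single count.

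Asph yields several products from 1 gene, among them junctin, the partner of triadin, and an enzyme, aspartyl beta-hydroxylase, that is widely expressed. Counts per gene cover all of them. It had 233.9 and 127.2 CPM in MT and 90.6 and 145.6 CPM in MB, so that MT replicate 2 lay between the MB libraries. The log2FC was 0.66 (95% interval -0.41 to 1.73, adjusted p = 0.381 from edgeR) and 0.06 without MT replicate 1. In the annotation, exons of Clvs1 on the opposite strand cover 14.3% of its exonic length, those of Gm37759 cover 20.0% of that of Cacna1s, those of Aven 4.83% of that of Ryr3 and those of Gm26604 3.96% of that of Ryr1. How the counting treated strand is not given in the sources used here. The cultures had at most 31 counts for Clvs1, 30 for Gm37759 and 43 for Aven, and none for Gm26604.

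The junctophilins had no call. Jph2, known from the heart as well as from skeletal muscle, was present in MB at 36.3 and 21.8 CPM and in MT at 18.7 and 34.1 CPM, in overlapping ranges. Its log2FC was -0.18 (95% interval -1.34 to 0.98, adjusted p = 0.846 from edgeR), and it was 0.14 without MT replicate 1. Jph1, the isoform of skeletal muscle, had 9.08 and 5.98 CPM in MT and 1.10 and 2.65 CPM in MB. Its groups did not overlap, and its log2FC was 2.04 (95% interval 0.30 to 3.79), yet the adjusted p of 0.0998 from edgeR missed the threshold. These values rest on 122 and 47 counts against 9 and 22.

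Of 20 other genes of the triad, the reticulum and its store, all were tested, 12 were called higher in MT, where 11.0% of all genes tested were, and none lower, and their median log2FC was 2.90. Casq1, Hrc, Sypl2 and Sln, 4 of the 12, passed the filter on low counts through MT alone, with neither MB library at its minimum. The 5 highest fitted values were those of Casq1, Casq2, Sypl2, Cav3 and Hrc. Casq1, the calsequestrin of fast muscle, had 281.5 and 286.4 CPM in MT against 0 and 3 counts in MB (ratio 1554, 95% interval 532 to 7539 for counting error). Casq2, its cardiac and slow-muscle relative, had 796 and 844 CPM in MT and 2.45 and 1.57 CPM in MB, with a log2FC of 8.65 (SE 0.69). Both calsequestrins were thus far above MB in each MT library. Cav3, the muscle caveolin, which takes part in tubule formation, had a log2FC of 7.36 (SE 0.66), and Hrc, the histidine-rich calcium-binding protein of the reticulum, of 7.03 (SE 0.72). Sypl2, mitsugumin 29, a tubule protein, had 45 and 12 counts in MT and none in MB. Its mean level in MT was 6.63 times that of 3 counts in an MB library.

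The other 7 that were called were Atp2a1, the calcium pump of fast fibers, Sln, its inhibitor, Srl, Tmem38a, Tmem38b, Mtm1 and S100a1. The 8 that did not pass were Cacna2d1, Stim1, Homer1, Bin1, Orai1, Jsrp1, Speg and Fkbp1a. Cacna2d1 encodes the alpha2delta subunit, the remaining part of the voltage sensor, and came nearest to the threshold. It had 41.3 and 74.1 CPM in MT and 7.97 and 25.1 CPM in MB, in ranges that did not overlap, and edgeR put its log2FC at 1.82 with an SE of 0.58 (adjusted p = 0.0532). Both MT libraries lay above both MB libraries for 15 of the 20 genes, as they did for 32.9% of all genes tested. They lay below both for 1 of the 20 and for 29.2% of all. This was Fkbp1a, the protein that stabilizes the closed ryanodine receptor, at 620 and 662 against 1294 and 1039 CPM. Its log2FC was -0.88 (adjusted p = 0.281 from edgeR).

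**Figure D3:**
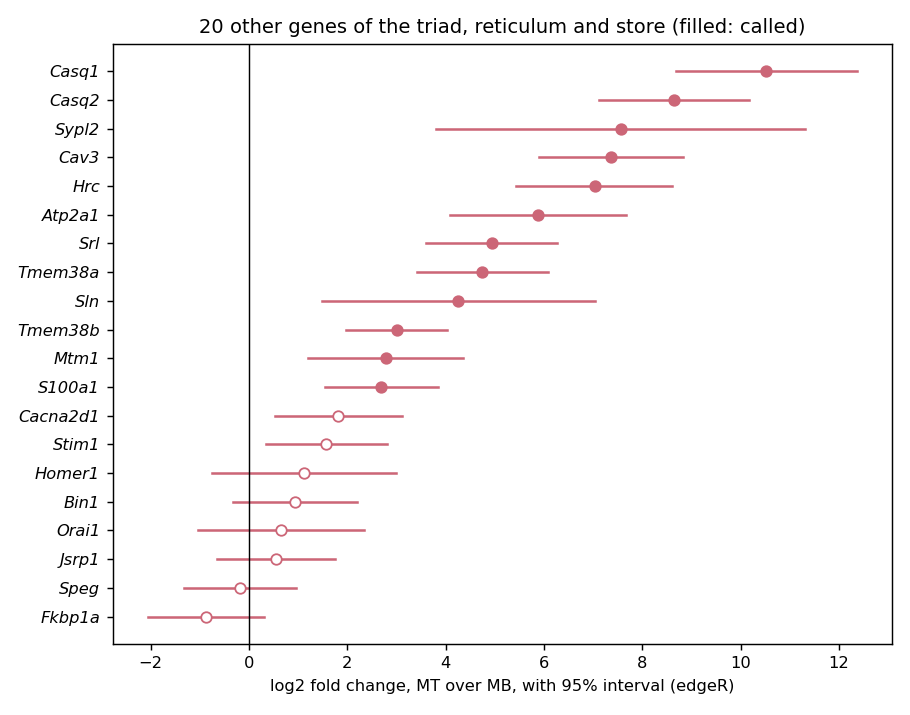
log2FC of MT over MB with 95% intervals from edgeR's quasi-likelihood fit for 20 other genes of the triad, the sarcoplasmic reticulum and the calcium store, n = 2 libraries per group. The 12 filled points were called higher, with Casq1 at 10.52 on top, and the 8 open points, from Cacna2d1 at 1.82 to Fkbp1a at -0.88, did not pass.

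Most members belong to families of paralogs, and shares within a family, computed per library from RPKM, the CPM per kb of exon, need no scaling between libraries. They are given as a description. Among beta subunits, Cacnb3 made up 92.5% and 91.2% in the MB libraries and 29.7% and 36.8% in MT, where Cacnb1 held 66.5% and 63.1%. In GAS, Cacnb1 held 98.2% to 98.9%. Cacnb3 itself had 45.6 and 64.4 CPM in MT and 52.2 and 43.0 CPM in MB, in overlapping ranges, and its log2FC was 0.19 (95% interval -0.79 to 1.16, adjusted p = 0.809 from edgeR).

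Among STAC adaptors, Stac2 was the main one in MB, with 77.1% and 70.1%, and Stac3 held 21% and 28.7%. In MT, Stac3 reached 35.0% in replicate 1 and 67.5% in replicate 2, and in GAS 99.9% in each library. Stac2 had 124 and 63.2 CPM in MB and 44.7 and 44.8 CPM in MT, with a log2FC of -1.09 (95% interval -2.16 to -0.02, adjusted p = 0.148 from edgeR), and at most 4 counts in a GAS library.

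Among ryanodine receptors, Ryr3 held 42.3% in MT replicate 1 and 13.1% in replicate 2 and between 0.0114% and 0.021% in GAS, where Ryr1 was nearly the whole of the family. The MB shares rest on fewer than 20 counts for the family per library and are not read. Cacna1s made up 95.6% and 99.6% of the L-type pores in MT and at least 99.9% in GAS. Jph1 held 2.50% and 9.29% of the junctophilins in MB, 24.4% and 12.9% in MT and 25.5% to 27.9% in GAS. Jph3, a neuronal junctophilin, held 13.0% in MT replicate 1 and 0.921% in replicate 2, from 58 and 3 counts.

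**Figure D4:**
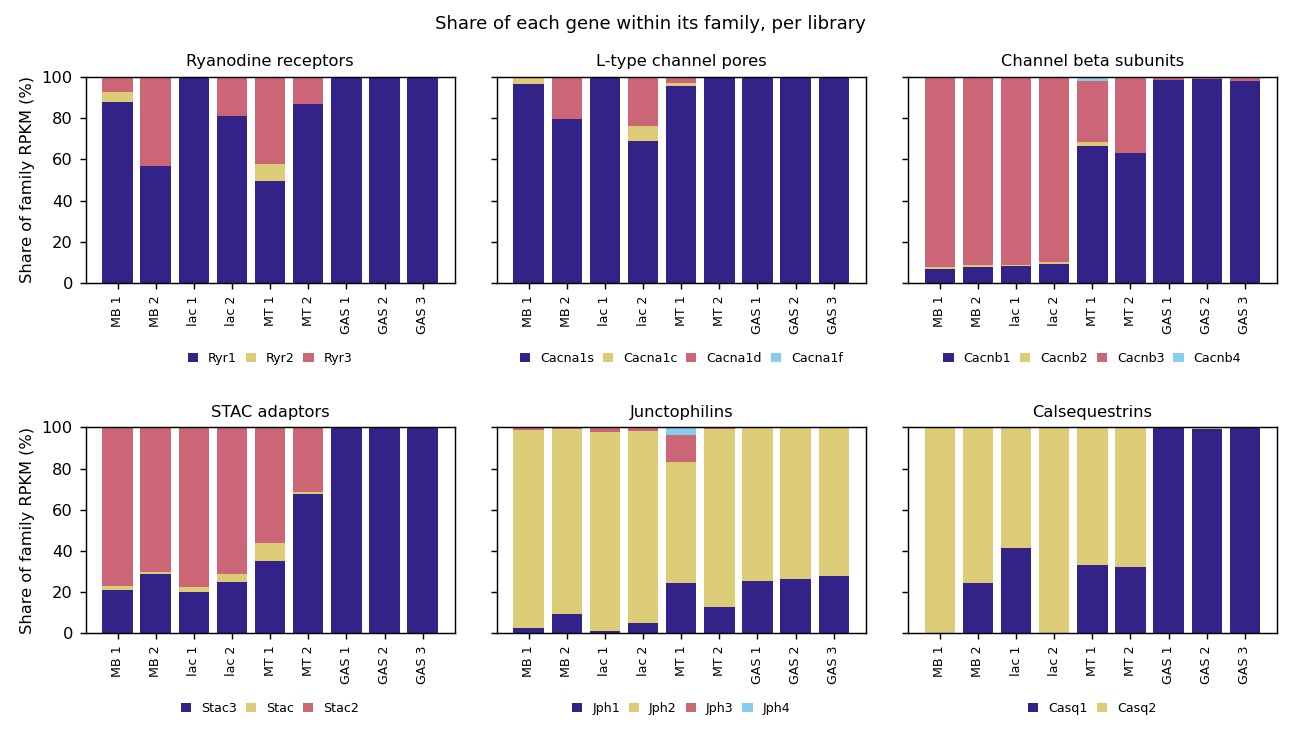
Share of each gene in the summed RPKM of its family in each of the 9 libraries (percent), as stacked bars that start at 0, for 5 families with members in the triad and for the calsequestrins; lac stands for MB with 10 mM lactate. Cacnb3 and Stac2 fill most of the bar in MB and little or none in GAS, and Casq1 holds 33.1% and 32.3% in MT against 99.2% to 99.6% in GAS.

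In GAS, 9 of the 10 genes, all but Ryr3, ranked between 132 and 1894 among the 36429 annotated genes listed, ordered by level per length. Together the 10 genes took 0.903% to 0.943% of all counts. The share was 0.0868% and 0.0954% in MT, 0.016% and 0.0213% in MB and 0.0108% and 0.0237% in lactate-treated MB. Because poly(A) libraries (GAS) and Smart-seq2 libraries (cultures) differ in protocol, levels were not tested between them.

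With the union of exons as length, the order in GAS was led by Jph2 with 263.7 ± 17.9 RPKM (SD, n = 3). Ryr1 followed with 194.5 ± 7.02 RPKM and Cacng1 with 182 ± 9.14 RPKM (SD, n = 3), and the libraries of these genes overlapped. Cacna1s had 159.3 ± 6.87, Trdn 142.9 ± 13.8 and Stac3 128.7 ± 9.28 RPKM (SD, n = 3), and Trdn could not be set apart from either neighbour. Jph1 came next with 95.2 ± 3.31 RPKM and Cacnb1 with 41.7 ± 2.74 RPKM (SD, n = 3). Asph, at 16.1 ± 1.06 RPKM (SD, n = 3), held rank 1894. Ryr3 had 14, 8 and 15 counts and 0.0333 ± 0.0105 RPKM (SD, n = 3), rank 16951. Ryr1 itself had between 80654 and 86411 counts per GAS library, or 4083 to 4387 CPM. The order depends on the length used: with the longest transcript, Trdn (296 RPKM) and Ryr1 (277 RPKM) lay above Jph2 (267 RPKM).

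**Figure D5:**
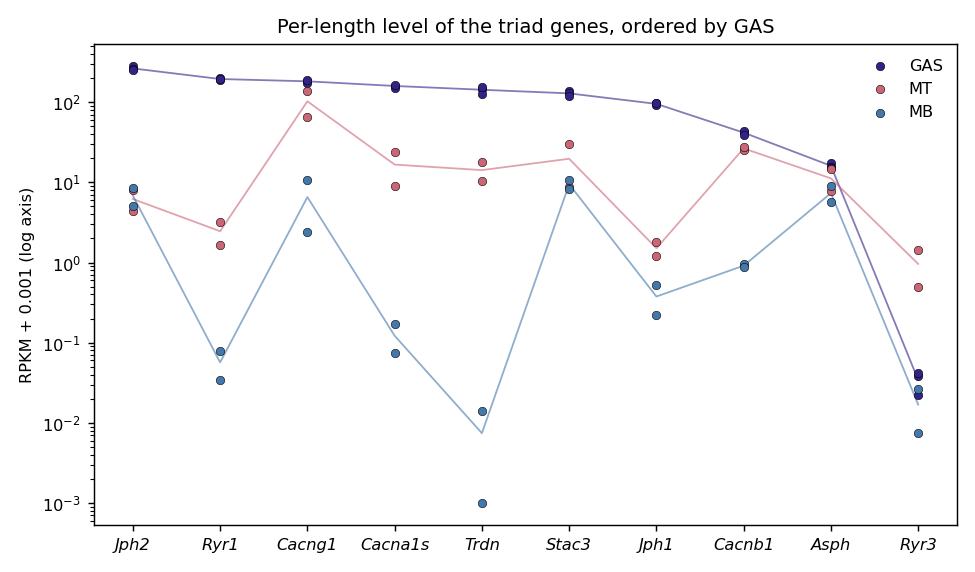
RPKM + 0.001 of the 10 triad genes on a log axis in GAS (n = 3), MT (n = 2) and MB (n = 2), with 1 point per library and lines joining the group means only to guide the eye; genes are ordered by their mean in GAS. The order of MT differs from that of GAS: Cacng1 leads at 102.5 RPKM, Ryr1 is at 2.46 RPKM, and Ryr3 lies above its GAS level.

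The order in MT was another one. Cacng1 had the highest level with 102.5 ± 52.6 RPKM (SD, n = 2), and its libraries lay above those of every other member. Cacnb1 (26.5 ± 1.45 RPKM), Stac3 (19.7 ± 15.3), Cacna1s (16.7 ± 10.7), Trdn (14.2 ± 5.58), Asph (11.2 ± 4.69) and Jph2 (6.20 ± 2.56) followed, with overlap between neighbours throughout (SD, n = 2). Ryr1 (2.46 ± 1.12), Jph1 (1.51 ± 0.44) and Ryr3 (0.959 ± 0.664) closed the order below the libraries of Jph2 and overlapped with their own neighbours (SD, n = 2). In MB, Stac3, Asph, Jph2 and Cacng1 had mean levels of 6.55 to 9.47 RPKM, and the other 6 genes were below 1 RPKM.

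Ratios within a library compare the parts of the triad without scaling between protocols. Ryr1 over Cacna1s, the release channel over its sensor, was 1.18 to 1.25 in the GAS libraries and 0.184 and 0.134 in the MT libraries, on the RPKM scale. Cacnb1 over Cacna1s was 0.234 to 0.29 in GAS and 2.81 and 1.14 in MT. The release channel was thus low, and the beta subunit high, relative to the pore subunit in both MT libraries compared with all GAS libraries. Stac3 over Cacna1s was 0.718 to 0.859 in GAS and 0.977 and 1.26 in MT. Jph2 over Jph1 was 2.58 to 2.92 in GAS, 2.42 and 6.70 in MT and 38.6 and 9.66 in MB, where Jph1 had 9 and 22 counts. Transcripts of Ryr1 are much longer than those of Cacna1s, and coverage along long transcripts can differ between the protocols. The GAS files also listed 38293 genes and those of the cultures 46078. Gm37759, whose exons overlap those of Cacna1s, was not listed for GAS. The part of coverage and of the gene lists in these ratios was not tested.

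The comparison of lactate-treated with control MB asks whether lactate changes these genes before differentiation. No member was called. Of 11804 genes tested with edgeR's quasi-likelihood test, 0% passed a nominal p under 0.01 with an absolute log2FC over 0.5, 5 (0.0424%) had a nominal p under 0.05, and none had an adjusted p under 0.05. With no change in any gene, a well calibrated test would put about 5% of genes under 0.05, so these p-values ran high. The lack of calls therefore does not show that lactate had no effect. At the first threshold the study itself reports a small group of genes, higher and lower. DESeq2 called 1 gene at the first threshold, which was no member. Ryr3, Cacna1s and Trdn were not tested, as no library of the comparison reached the filter's 1.32 CPM. They had at most 4 counts in a lactate-treated library, against at most 9 in a control.

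For the 7 members tested, the log2FC lay between -1.09 and 0.71 and the SE between 0.44 and 1.02, and the smallest p was 0.239 from edgeR. This fit treated the libraries as unpaired. A block for replicate number gave a smallest member p of 0.113 from edgeR, though no source states that equal numbers mark pairs. The highest value belonged to Cacnb1, with 8.26 and 5.69 CPM in lactate-treated and 4.29 and 3.98 CPM in control MB. It was the 1 member with both treated libraries above both controls, which held for 4.28% of all genes tested, and no member had both below, which held for 6.84%. Its log2FC was 0.71 with a 95% interval of -0.61 to 2.04. The lowest value was that of Jph1, with 2 and 8 counts in lactate-treated and 9 and 22 in control MB, where the log2FC was -1.09 (95% interval -3.57 to 1.39).

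The SE was lowest for Stac3 and Jph2, at 0.44 and 0.46. Stac3 had 27.9 and 20.1 CPM in lactate-treated and 27.2 and 20.97 CPM in control MB, and its log2FC of -0.04 had a 95% interval of -1.12 to 1.03. For Jph2 the log2FC was -0.20 (95% interval -1.31 to 0.91) and for Asph -0.09 (-1.48 to 1.29). Ryr1 (0.08, 95% interval -2.13 to 2.29) and Cacng1 (-0.07, 95% interval -2.08 to 1.93) left a wider range. Family shares also lay close together, with Cacnb3 at 91.4% and 89.4% of beta subunits and Stac2 at 77.8% and 71.4% of STAC adaptors in lactate-treated MB.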

How the data were processed

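The authors deposited raw gene counts, made with Trim Galore 0.6.6, HISAT2 2.2.1 (mm10) and featureCounts of Subread 2.0.1. GAS libraries were paired-end poly(A), those of cultured cells Smart-seq2 from 5 ng of RNA. The annotation release and the strand setting are not given in the sources used here. Symbols, coordinates and exonic lengths came from GENCODE M21, on the same assembly. CPM used TMM normalization, for GAS and cultures separately, and RPKM the union of exons.

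MT and MB, and lactate-treated and control MB, were compared with edgeR 4.0.16 (R 4.3.3), with its filter on low counts, the quasi-likelihood test and Benjamini-Hochberg adjustment over all genes tested. SE is the absolute log2FC divided by the square root of F. The edgeR fits were tested on simulated independent libraries, which modeled neither paired replicates nor a library such as MT replicate 1. DESeq2 1.42.0, other filters, scalings and lengths, a replicate block and leaving out libraries were alternatives. Intervals of count ratios are exact. Thresholds follow the study, but its lactate comparison reports a small group of genes where the fit here called none. The reason for this difference was not tested.

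Named were all members, of the other triad genes the 5 called with the highest absolute log2FC in each direction and, by symbol, those that did not pass, and paralogs with over 10% of their family. Fkbp1a and Cacna2d1 are given with values chosen after these were seen. The members and lists were chosen with earlier results of these data known. All 6 cultured and 3 GAS libraries were used.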

Additional observations from a re-analysis of the deposited data

How the results depend on the processing

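All 6 calls of members in MT against MB were kept under RLE size factors, DESeq2, no filter on low counts and the replicate block. With each library left out, all 6 kept their direction. Calls are not read there, since 1 group then has no spread of its own. With at least 10 counts required in every library, 5 members could be tested and 2 were called, Cacnb1 and Cacng1, since the other 4 have under 10 counts in an MB library. Among all genes, 2312 were called, 1444 under that filter, 3021 by DESeq2, and 1232 to 4921 with 1 library left out (1232 without MT replicate 1, 4921 without MT replicate 2). Of the members not called, Jph2 turned to 0.22 without MB replicate 1 and 0.14 without MT replicate 1 (lowest -0.76), and Stac3 to -0.20 without MT replicate 2 (highest 1.61).

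No source used here states whether equal replicate numbers mark paired cultures. With the replicate block, 2271 genes were called in MT against MB and the same 6 members, and Cacna2d1 passed (adjusted p = 0.0139). The deviations of equally numbered libraries correlated at -0.132, and crossed numbers, chosen after seeing the data, gave 2059 genes. For lactate, where the correlation was 0.705, the block lowered edgeR's common biological coefficient of variation from 0.455 to 0.225. The block gave 13 genes and no member, with a smallest member p of 0.113 from edgeR.

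Genes called for lactate numbered 0, 1 with DESeq2, 1 without the filter, and 1 to 177 with 1 library left out, 177 without MB replicate 2. No alternative called a member. Their log2FC near 0 changed sign: Stac3 to 0.02 (RLE and DESeq2), 0.24 (without MB replicate 1) and 0.14 (without lactate replicate 2), Cacng1 to 0.09 (block), 1.46 and 0.41 (without the same libraries), Jph2 to 0.29 (without MB replicate 1), Ryr1 to -0.40 and -0.43 and Asph to 0.30 and 0.47 (without MB replicate 2 or lactate replicate 1). With 1 library left out, the other extremes were -0.25 for Stac3, -0.81 for Cacng1, -0.51 for Jph2, 0.90 for Ryr1 and -0.99 for Asph. Jph1 kept its sign, between -2.43 (without lactate replicate 2) and -0.32 (without MB replicate 2). The cause was not tested.

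In GAS, the median of the members, 136 RPKM, was 174 RPKM with the longest transcript as length, where Trdn had 296 and Ryr1 277 RPKM, both above Jph2 at 267, so that the order by length depends on this choice.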

Other observations

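Cacng6, a gamma subunit gene of skeletal muscle that shares its family with Cacng1, had 57.1 and 32.1 CPM in MT against 1 count in each MB library, and 71.0 to 74.6 CPM in GAS. The ratio of pooled CPM was 394 (95% interval 109 to 3256, counting error only), and the log2FC of 8.40 was called (adjusted p = 0.00017 from edgeR), although the gene passed the filter on low counts through MT alone. On the RPKM scale it held 30.7% and 10.4% of the sum of both genes in MT and 16.3% to 17.3% in GAS. This pair and the calsequestrins were grouped after their values were seen.

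Of the 12 paralogs examined, 6 passed the filter in MT against MB, and the other gene called was Cacna1c, the pore of the cardiac L-type channel, with 40 and 15 counts in MT and 1 and 0 in MB (ratio 42.5, 95% interval 7.32 to 1709), which also passed the filter through MT alone. Several paralogs were counted almost only in MT replicate 1, with 91 counts for Cacnb4, 45 for Cacna1d and 25 for Jph4, against at most 1 each in MT replicate 2.

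Of the 20 other genes of the triad and the store, 16 were tested for lactate and none was called by edgeR, with log2FC from -0.71 for Casq2 to 0.44 for S100a1 and none at a nominal p under 0.05.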
